A study of Mus musculus with 9 samples.

Results

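Ferritins and the genes that import, export and sense iron were followed in mouse embryonic stem (ES) cells given 1 of 2 microRNA mimics. The 7 genes were the storage subunits Fth1 and Ftl1, the importers Tfrc and Slc11a2, the exporter Slc40a1 and the regulators Ireb2 and Aco1, out of 19938 genes named on the array. They were chosen by name, with earlier results of these same arrays known, so their differences between groups are described without a test and support nothing by themselves. All probe sets annotated to them were taken, 11 in all, of which 7 carried 1 gene symbol and 4 carried Ftl1 together with microRNA hairpins. All 7 genes passed the filter on dim values, each in all 9 arrays.

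RNA came from ES cells of genotype Dgcr8 -/-, which lack a protein needed to make most microRNAs. One group was transfected with 50 nM let-7c mimic, another with 50 nM miR-294 mimic, and the third was mock transfected. All 3 groups were then kept without leukaemia inhibitory factor (LIF), a cytokine that sustains ES cells, and were harvested 12 h after transfection. Each group had 3 biological replicates, 1 array each, and no label says whether a replicate was a separate line or culture, so p-values measure the spread between these arrays, which may be technical. The labels name no control mimic, so an effect of transfected RNA as such and that of the microRNA cannot be told apart in a comparison with mock. All groups lack Dgcr8, so normal ES cells were not compared.

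Values are deposited log2 intensities, and array medians lay between 7.36 and 7.41. Of 10 ES cell markers fixed for the check, among them Pou5f1, Nanog and Sox2, all 10 lay above the 40th percentile of each of the 9 arrays. Their mean level differed by group, at 11.55 to 11.56 with let-7c, 11.83 to 11.88 with mock and 11.99 to 12.06 with miR-294, and its part in the results was not tested. Macrophage markers were dim apart from Cd68, with 6 of 7 below that percentile in every array. Of the hepatocyte markers 4 of 5 were below it in every array and 0 above it in every array. The other lists were mixed: 3 of 7 fibroblast, 2 of 6 erythroid and 2 of 6 primitive endoderm markers were below it in every array. Above it in all 9 arrays were 4 of 7 fibroblast, 3 of 6 erythroid and 2 of 6 primitive endoderm markers. The probe set of Dgcr8 read 8.85 to 8.94 with let-7c, 9.07 to 9.13 with miR-294 and 8.92 to 9.08 with mock. No label gives the deleted part of the gene, and the reading is no check of the genotype.

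Cells take up iron bound to transferrin through the transferrin receptor, and the divalent metal transporter carries it from endosomes into the cytosol. Iron that is not used is stored in ferritin, a hollow shell built of heavy (H) and light (L) subunits, or leaves through ferroportin, the known cellular iron exporter. When iron is scarce, iron regulatory proteins bind hairpins called iron-responsive elements, which blocks translation of ferritin and ferroportin messages and stabilises the transferrin receptor message. Much of this control therefore acts on protein synthesis, which RNA levels do not show.

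The mimics carry the mature sequences below, taken from RefSeq (GRCm38.p6) and shown because the seed, bases 2 to 8 in capitals, is the part that pairs with target messages. Their seeds differ. RefSeq places let-7c at chr15:85706616-85706637 and, as an identical copy, at chr16:77599672-77599693, and miR-294 at chr7:3220691-3220712, all on the plus strand.
mmu-let-7c-5p: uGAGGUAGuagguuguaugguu
mmu-miR-294-3p: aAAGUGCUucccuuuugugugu

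The 2 ferritin subunit messages differed from mock in opposite directions with let-7c: Fth1 was 1.30-fold higher and Ftl1 1.52-fold lower. Slc40a1, for ferroportin, was 1.89-fold higher with let-7c and 1.53-fold lower with miR-294. Tfrc, for the transferrin receptor, was 1.45-fold lower with miR-294. The messages of both iron regulatory proteins, Ireb2 and Aco1, lay within 0.07 (log2) of mock with either mimic.

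**Figure D1:**
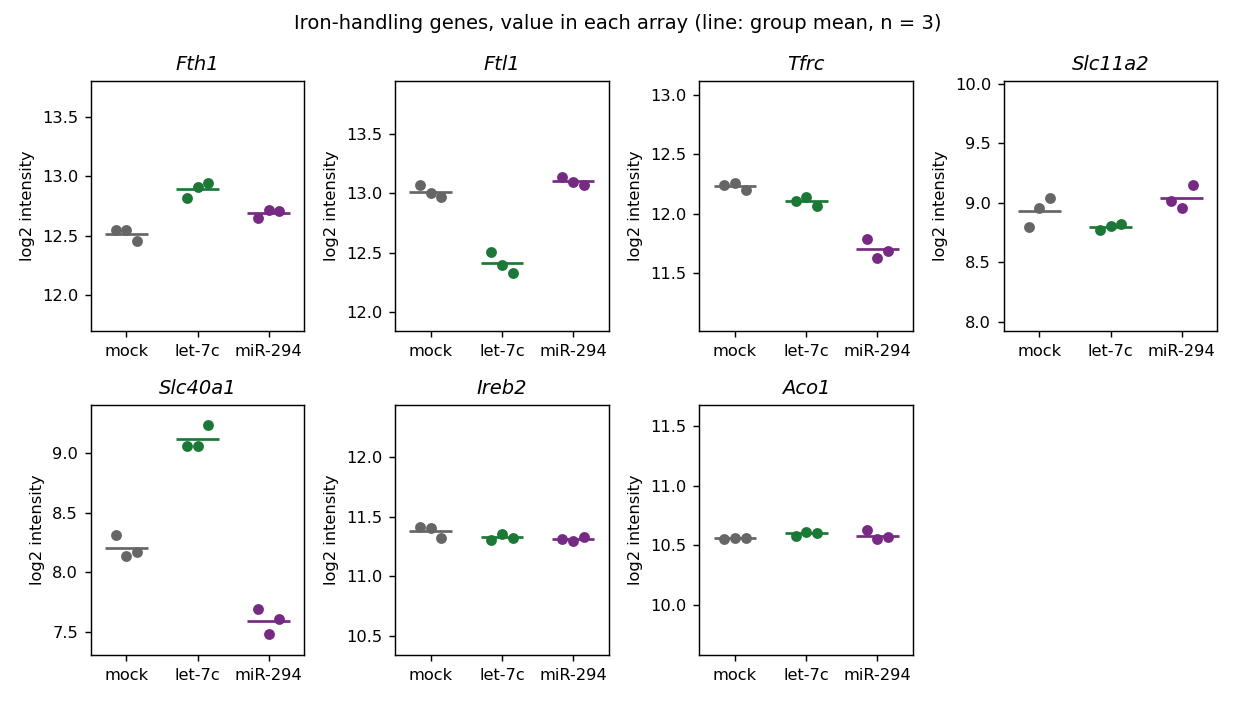
Log2 intensity (y axis, the same span in every panel) of the 7 iron-handling genes in each array by group (x axis); points are arrays and lines are the means of 3 arrays. Ftl1 is lowest with let-7c, Tfrc is lowest with miR-294, and Slc40a1 is in 3 separate levels.

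Fth1 encodes the ferritin H subunit, which oxidises iron as it enters the shell. Its 3 arrays read 12.82, 12.91 and 12.95 with let-7c, 12.65, 12.72 and 12.70 with miR-294, and 12.55, 12.55 and 12.46 with mock. The order was let-7c, miR-294, mock, with no overlap between any 2 groups. Such separation was common: it held for 43.9% of all tested genes between let-7c and mock, 53.8% between miR-294 and mock and 57.0% between the mimics. Of the tested genes, 6.37% differed more than Fth1 from mock with let-7c and 38.9% with miR-294. The difference from mock was 0.38 ± 0.05 (log2, standard error, n = 3 per group) with let-7c and 0.17 ± 0.05 with miR-294, and let-7c exceeded miR-294 by 0.20 ± 0.05. RefSeq names 2 pseudogenes of this gene, and how far its probes also read such copies was not tested.

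Ftl1 encodes the L subunit, which helps iron to mineralise inside the shell. Its arrays read 12.51, 12.39 and 12.33 with let-7c, 13.14, 13.09 and 13.07 with miR-294, and 13.07, 13.01 and 12.97 with mock. The let-7c arrays lay clearly below all others, while the miR-294 arrays lay just above mock, the lowest of them at 13.071 beside 13.068 for the highest mock array. The difference was -0.60 ± 0.05 with let-7c and 0.09 ± 0.05 with miR-294, and let-7c lay below miR-294 by a difference of -0.69 ± 0.05. Of the tested genes, 1.59% differed more between let-7c and mock.

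The 4 further probe sets carry Ftl1 together with the hairpins Mir692-2 and Mir692-3. In RefSeq these hairpins lie inside Ftl2-ps and Ftl1-ps1, copies of the L ferritin gene, so these probe sets cannot separate the gene from its copies. RefSeq names 3 such pseudogenes, and how far the Ftl1 probe set with 1 symbol also reads them was not tested. All 4 gave the pattern of the Ftl1 probe set, with differences from mock of -0.60 to -0.67 with let-7c and 0.06 to 0.11 with miR-294. They are not independent readings: 1 of them had the same value as the Ftl1 probe set in 2 of 9 arrays. With the mean of all 5, the let-7c difference was -0.62.

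**Figure D2:**
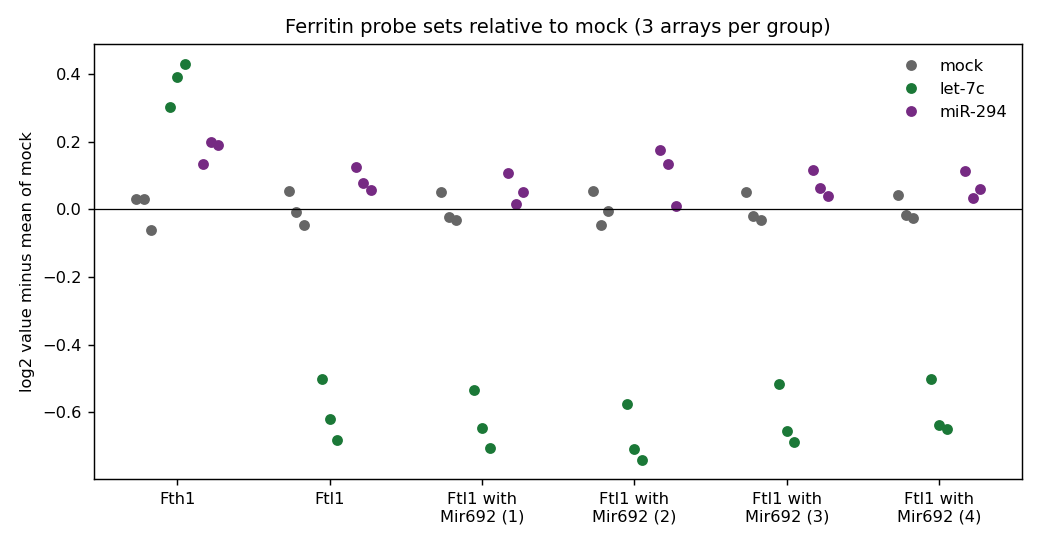
Log2 value minus the mock mean of the same probe set (y axis) for Fth1, Ftl1 and the 4 probe sets that carry Ftl1 with Mir692 hairpins (x axis); each point is 1 array, 3 per group. With let-7c, Fth1 lies above 0 and all 5 probe sets of Ftl1 lie below it, at means of -0.60 to -0.67.

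Set against the mock mean of each probe set, the shift of Fth1 exceeded that of Ftl1 by 0.81, 1.01 and 1.11 (log2) in the 3 let-7c arrays. In the miR-294 arrays the same quantity was 0.01, 0.12 and 0.13, and in the mock arrays -0.02, 0.04 and -0.01. The let-7c mean was 0.98 ± 0.16 (SD, n = 3) against 0.09 ± 0.07 for miR-294. This quantity restates the differences of the 2 genes given above and is no further evidence. The let-7c arrays lay above all others; each miR-294 array lay above the mock array of its own number, although the groups overlapped.

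The bases before the starts of both ferritin genes are shown because their messages differed in opposite directions with let-7c. They are 250 bases upstream of the annotated start, from RefSeq (GRCm38.p6): for Fth1 chr19:9982396-9982645 on the plus strand, the more downstream of 2 starts listed, and for Ftl1 chr7:45459887-45460136 on the minus strand. Capitals mark CCAAT, on either strand.
Fth1: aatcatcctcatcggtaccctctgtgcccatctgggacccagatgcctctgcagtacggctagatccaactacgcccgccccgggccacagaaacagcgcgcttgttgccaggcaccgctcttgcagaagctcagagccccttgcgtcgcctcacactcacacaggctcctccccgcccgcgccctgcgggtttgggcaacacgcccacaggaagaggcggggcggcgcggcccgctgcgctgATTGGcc
Ftl1: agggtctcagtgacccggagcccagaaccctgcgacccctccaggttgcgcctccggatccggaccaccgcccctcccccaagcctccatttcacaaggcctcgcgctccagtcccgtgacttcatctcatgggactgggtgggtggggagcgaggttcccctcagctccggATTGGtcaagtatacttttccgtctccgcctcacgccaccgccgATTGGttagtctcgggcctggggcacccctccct

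The search covered 300 bases, from 250 before each start to 50 from it, on both strands, with position 1 at the start. CCAAT was found once before Fth1, at -7 to -3, and at 2 places before Ftl1, at -78 to -74 and at -34 to -30; 37.4% of 32851 RefSeq windows hold it. TATAA lay after the start in both, at 27 to 31 in Fth1 and at 18 to 22 in Ftl1, and is in 24.9% of windows. Neither window held TGANNNNGC, the core of the antioxidant response element (41.3% of windows), or CACGTG, the E-box (7.15%). None of these motifs overlapped another here. The listed windows of Tfrc held CCAAT or TATAA, and that of Aco1 TGANNNNGC at -67 to -59.

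Tfrc encodes the transferrin receptor, whose message carries several iron-responsive elements. Its arrays read 11.79, 11.63 and 11.69 with miR-294, 12.11, 12.15 and 12.06 with let-7c, and 12.25, 12.25 and 12.20 with mock. All miR-294 arrays lay below all others, and the let-7c arrays lay below mock by a smaller step. The difference from mock was -0.53 ± 0.05 with miR-294 and -0.13 ± 0.05 with let-7c, and let-7c exceeded miR-294 by 0.40 ± 0.05. The last value was 0.47 after quantile normalization.

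Slc11a2 encodes the divalent metal transporter DMT1. Its arrays read 8.77, 8.80 and 8.82 with let-7c, 8.80, 8.95 and 9.04 with mock, and 9.01, 8.95 and 9.15 with miR-294. Mock overlapped both mimics, while let-7c lay below miR-294 without overlap (-0.24 ± 0.07). The differences from mock were -0.13 ± 0.07 with let-7c and 0.11 ± 0.07 with miR-294.

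Slc40a1 encodes ferroportin and had the widest spread of the 7 genes. Its arrays read 9.06, 9.06 and 9.24 with let-7c, 8.32, 8.13 and 8.17 with mock, and 7.70, 7.48 and 7.61 with miR-294. The 3 groups formed separate levels in that order, and no 2 groups overlapped. The difference from mock was 0.92 ± 0.07 with let-7c and -0.61 ± 0.07 with miR-294, so let-7c exceeded miR-294 by 1.53 ± 0.07, or 2.88-fold. Of all tested genes, 0.319% differed more from mock with let-7c, 3.51% with miR-294 and 0.190% between the mimics. Macrophages are known for high ferroportin, and the mean level of the 7 macrophage markers was 6.60 to 6.72 with let-7c, 6.62 to 6.76 with miR-294 and 6.61 to 6.62 with mock. Except for Cd68, these markers, among them Adgre1 and Csf1r, were dim in all 9 arrays. Whether macrophages had a part in the Slc40a1 values was not tested.

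Ireb2 and Aco1 encode iron regulatory proteins 2 and 1, and the latter doubles as cytosolic aconitase. Ireb2 read 11.31, 11.35 and 11.32 with let-7c, 11.31, 11.30 and 11.32 with miR-294, and 11.41, 11.40 and 11.32 with mock. Aco1 read 10.58, 10.61 and 10.60 with let-7c, 10.62, 10.55 and 10.57 with miR-294, and 10.55, 10.56 and 10.56 with mock. The miR-294 arrays overlapped mock for both genes, and so did the let-7c arrays for Ireb2; those for Aco1 lay just above mock. The differences from mock were -0.05 ± 0.04 and -0.07 ± 0.04 for Ireb2 with let-7c and miR-294, and 0.04 ± 0.04 and 0.02 ± 0.04 for Aco1.

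In the fit across all 13182 tested genes (limma, adjusted p under 0.05), 3 of the 7 genes were called for let-7c over mock, where 28.7% of all tested genes were. For miR-294 over mock 3 were called (background 41.9%), and between the mimics 5 (background 50.8%). Since the genes were picked with such results known, nothing is read from these counts. The count with miR-294 was 2 without miR-294 replicate 2 or without mock replicate 3, where Fth1 was no longer called. With let-7c it was 4 under an intensity trend and robust prior or the stricter filter, where Tfrc was added. Groups did not overlap for 43.9% of all tested genes between let-7c and mock, 53.8% between miR-294 and mock, and 57.0% between the mimics.

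Genes whose values were most like those of a member were ranked by the root mean square difference over the 9 arrays, each gene centred on its own mean, for the 4 members whose group means spanned over 0.25 (log2). Nearest to Fth1 were Spry4, Itga3 and Rras2, at 0.035 to 0.037. Nearest to Ftl1 were Tmppe, Nup62 and Ergic1, at 0.049 to 0.050. Nearest to Tfrc were Usp32, Fcho2 and Frmd4a, at 0.033 to 0.039. Nearest to Slc40a1 were Kif1a at 0.12, Id1 at 0.12 and Car13 at 0.13. The measure is not scaled, and the group means of Slc40a1 spanned 1.53 against 0.375 for Fth1, so these distances are not compared between members. Id1 differed from mock by 0.98 with let-7c and by -0.60 with miR-294.

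The rest of the iron pathway was taken from 8 lists without the 7 genes: of 100 listed genes 94 had a probe set with 1 symbol and 79 were tested. Adjusted p-values are from limma over all 13182 genes. With let-7c 19 of the 79 rose and 10 fell, 36.7% in all, against 13.9% higher and 14.8% lower among all tested genes. With miR-294 21 rose and 18 fell, 49.4% in all, against 20.7% and 21.1%. Between the mimics 30 were higher and 23 lower with let-7c, 67.1% in all, against 26.2% and 24.5%. The medians of the 79 were 0.05, 0.05 and 0.04, beside 0.02, 0.02 and -0.01 over all tested genes. The let-7c count was smaller when 1 array was left out, with 19 genes called without mock replicate 3. Only 12 rose without let-7c replicate 3, and only 6 fell without mock replicate 2 or 3. Counts over all tested genes shrank as well. Without let-7c replicate 3, genes called higher went from 1831 to 1294. Without mock replicate 2, genes called lower went from 1952 to 1396, and all called genes from 3783 to 2693. Whether iron genes lost more calls than other genes was not tested.

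**Figure D3:**
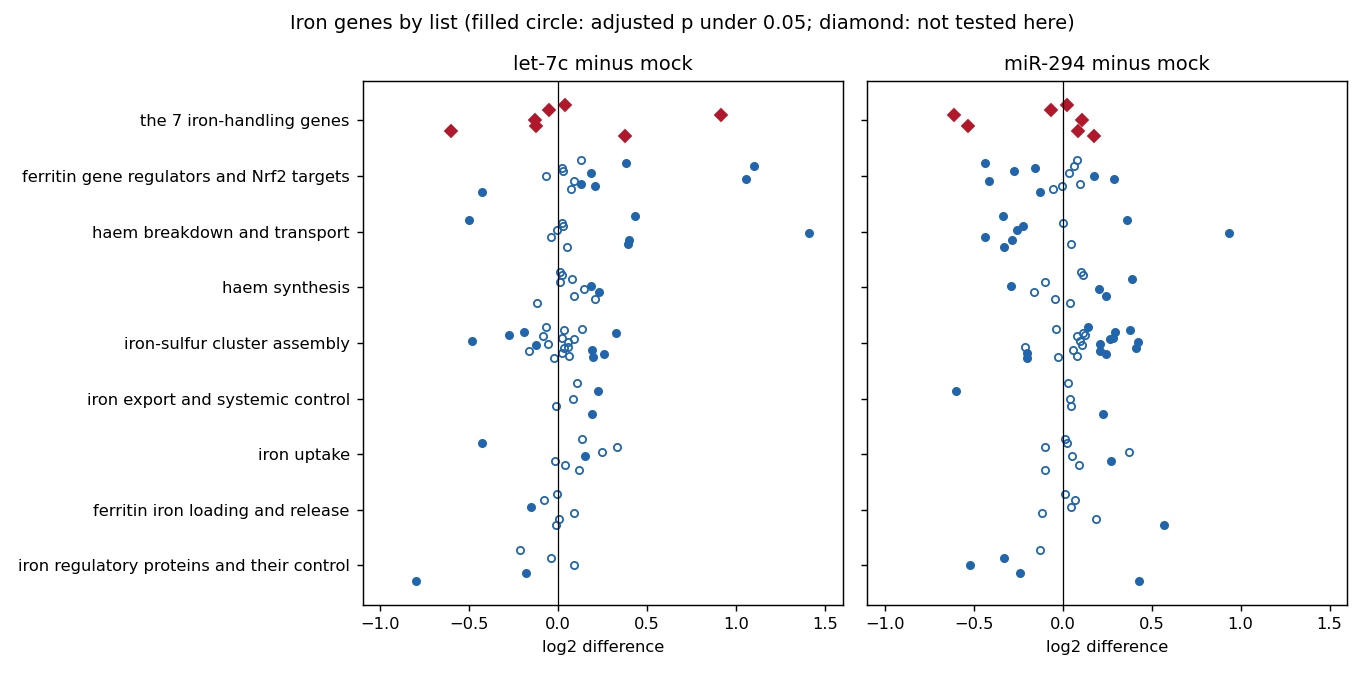
Log2 difference from mock (x axis) of each tested gene of the 8 iron lists and of the 7 iron-handling genes (y axis), with let-7c on the left and miR-294 on the right; filled circles passed an adjusted p of 0.05, open circles did not, and diamonds are the 7 genes, shown without a test. The point farthest to the right in both panels is Hmox1, at 1.41 and 0.93.

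The list of iron regulatory proteins and their control held 5 tested genes. It includes Epas1, whose message these proteins can bind, beside genes that control them. Of the 5, 2 were lower and 0 higher in let-7c cells, while 3 were lower and 1 higher in miR-294 cells (list medians -0.18 and -0.24). That is 40% and 80% called, against 28.7% and 41.9% of all tested genes. Ciao2a, whose human protein takes part in maturing iron regulatory protein 1, fell with let-7c (-0.80 ± 0.06, adjusted p = 1.25e-05) and rose with miR-294 (0.43 ± 0.06, adjusted p = 0.000304). Its arrays read 9.35 to 9.60 with let-7c, 10.19 to 10.34 with mock and 10.67 to 10.69 with miR-294, so the groups did not overlap. Fbxl5, the iron-sensing subunit of the ligase that degrades iron regulatory proteins, fell with miR-294 (-0.33 ± 0.06, adjusted p = 0.000906). Its let-7c arrays differed from mock by -0.04 ± 0.06 (adjusted p = 0.652), and the mimics differed by 0.29 ± 0.06 (adjusted p = 0.00133). Epas1, for a hypoxia factor whose message has an iron-responsive element, fell with miR-294 (-0.52 ± 0.08, adjusted p = 0.000489). Cul1, a scaffold of such ligases, fell with let-7c (-0.18 ± 0.06, adjusted p = 0.0339). Leaving out let-7c replicate 1 (0.0976) or any mock array, replicate 1 (0.0535), 2 (0.108) or 3 (0.0820), ended that call (all alternatives, 0.00853 to 0.108). It also ended without the filter (0.0676) and in a fit of only the 2 groups compared (0.0539).

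Of 6 genes that load or unload ferritin, 1 fell with let-7c and 1 rose with miR-294 (list medians -0.01 and 0.06). Calls made up 16.7% of this list with each mimic, against 28.7% and 41.9% of all tested genes. Ncoa4, the receptor that takes ferritin to the lysosome, fell slightly with let-7c (-0.15 ± 0.04, adjusted p = 0.0220). Leaving out let-7c replicate 1 (0.0572) or 2 (0.0548), or mock replicate 1 (0.0590), 2 (0.0626) or 3 (0.0585), ended the call (all alternatives, 0.00617 to 0.0626). With all arrays kept, quantile normalization (0.0508) or no filter (0.0515) also ended it. Set against miR-294, let-7c gave less Ncoa4 (-0.20 ± 0.04, adjusted p = 0.00239). Bola2, which carries iron-sulfur clusters in the cytosol, rose with miR-294 (0.57 ± 0.05, adjusted p = 3.72e-06). The iron chaperone genes Pcbp1 and Pcbp2 differed from mock by -0.08 and -0.01 with let-7c and by 0.07 and 0.01 with miR-294 (adjusted p = 0.188, 0.928, 0.212 and 0.804).

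Of 8 tested uptake genes other than the 2 members, 1 rose and 1 fell with let-7c (25.0% called, against 28.7% of all tested genes) and 1 rose with miR-294 (12.5% against 41.9%; list medians 0.13 and 0.04). Steap3, a reductase of the transferrin endosome, fell with let-7c (-0.43 ± 0.06, adjusted p = 0.000317), from 8.40 to 8.58 in the mock arrays to at most 8.10 with let-7c. The sorting gene Snx3 rose by 0.15 ± 0.04 (adjusted p = 0.0180), which no longer passed when let-7c replicate 3 (0.0654) or mock replicate 1 (0.0566) or 2 (0.0617; range 0.00316 to 0.0654) was left out. Slc39a14, a zinc and iron importer, rose with miR-294 (0.27 ± 0.05, adjusted p = 0.00155). Steap2 was above its miR-294 level in the let-7c group (0.43 ± 0.12, adjusted p = 0.00933; 0.121 with the mean of its probe sets, range 6.98e-05 to 0.121). Against mock it differed by 0.33 ± 0.12 with let-7c (adjusted p = 0.0551), and with a replicate block it passed (0.00108, the lowest over the alternatives). Without let-7c replicate 1 it also passed (0.0136). With the mean of its probe sets the difference from mock was only 0.09 (adjusted p = 0.465, the highest) and that between the mimics 0.17, so the values depend on which probe set is read.

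Of 5 tested genes of export and systemic control, 2 were higher in let-7c cells, and 1 was higher and 1 lower in miR-294 cells (list medians 0.11 and 0.04). This is 40% called with each mimic, against 28.7% and 41.9% of all tested genes. Neo1 encodes neogenin, a receptor that takes part in hepcidin control. It rose with let-7c (0.22 ± 0.05, adjusted p = 0.00553) and fell with miR-294 (-0.60 ± 0.05, adjusted p = 3.72e-06), the same directions as the differences of Slc40a1. Bmp6, a ligand that induces hepcidin in the liver, rose with let-7c (0.19 ± 0.05, adjusted p = 0.00931) and with miR-294 (0.23 ± 0.05, adjusted p = 0.00213). Its values were low, at 7.06 to 7.38 beside array medians of 7.36 to 7.41, and the stricter filter left it out. Hamp, the hepcidin gene itself, and the copper oxidase genes Heph and Cp were too dim to be tested.

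Of 22 tested genes of iron-sulfur cluster assembly, 4 rose and 4 fell with let-7c (36.4% called, against 28.7% of all tested genes; list median 0.03). With miR-294 10 rose, 2 fell and the others did not pass (54.5% called, against 41.9%; list median 0.12). Isca1 (0.42 ± 0.06, adjusted p = 0.000124), the glutaredoxin gene Glrx5 (0.41 ± 0.05, adjusted p = 6.01e-05) and Nubp2 (0.38 ± 0.05, adjusted p = 0.000209) rose most with miR-294. With let-7c Isca2 fell (-0.49 ± 0.07, adjusted p = 0.000416), Nfu1 rose (0.32 ± 0.06, adjusted p = 0.00223; 0.21 with the mean of its probe sets, adjusted p = 0.0198) and Nfs1, the cysteine desulfurase, fell (-0.27 ± 0.08, adjusted p = 0.0318). Nfs1 did not pass without let-7c replicate 2 (0.0793) or 3 (0.0924) or mock replicate 1 (0.0625), 2 (0.0997) or 3 (0.0627). Nor did it pass without the filter (0.0588, range over the alternatives 0.00346 to 0.0997). Between the mimics 12 of the 22 were lower and 6 higher with let-7c (list median -0.19), and 81.8% were called, against 50.8% of all tested genes. The largest changes were those of Isca2 (-0.58 ± 0.07, adjusted p = 2.58e-05) and Nubp1 (-0.49 ± 0.04, adjusted p = 4.30e-06).

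Of 10 haem synthesis genes, 2 were higher in let-7c cells, and 3 were higher and 1 lower in miR-294 cells (list medians 0.08 and 0.07). These shares, 20% and 40%, were below the 28.7% and 41.9% of all tested genes. Fech, the ferrochelatase that inserts iron into haem, fell with miR-294 (-0.29 ± 0.06, adjusted p = 0.00263) and stood higher in let-7c cells than in miR-294 cells (0.48 ± 0.06, adjusted p = 5.09e-05). Its rise with let-7c (0.19 ± 0.06, adjusted p = 0.0400) no longer passed without any 1 of let-7c replicates 1 (0.0626), 2 (0.0542) and 3 (0.131) or of mock replicates 1 (0.136) and 3 (0.106). Nor did it pass without the filter (0.0765, range over the alternatives 0.0242 to 0.136). Alas1, which makes the first haem precursor, rose with let-7c (0.23 ± 0.06, adjusted p = 0.0151; 0.0558 without mock replicate 2, range 0.00456 to 0.0558). With miR-294 Alas1 differed by -0.16 ± 0.06 and did not pass (adjusted p = 0.0506). It passed in 5 of 14 alternatives, among them a replicate block (adjusted p = 0.0361, range over the alternatives 0.0186 to 0.148). Tmem14c, a mitochondrial porphyrin carrier (0.39 ± 0.05, adjusted p = 0.000200), and Alad (0.24 ± 0.05, adjusted p = 0.00277) rose with miR-294.

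Haem breakdown and transport held the largest rise. Hmox1, for the enzyme that frees iron from haem, read 12.05, 12.19 and 12.30 with let-7c, 11.63, 11.78 and 11.72 with miR-294 and 10.74, 10.81 and 10.77 with mock. It rose with both mimics (1.41 ± 0.07 and 0.93 ± 0.07, adjusted p = 3.60e-07 and 1.37e-06), and the groups ran in the same order as for Fth1. Ftl1 did not share that order and lay below mock with let-7c (-0.60 ± 0.05). Of the 10 genes tested, 4 rose and 1 fell with let-7c, while 2 rose and 6 fell with miR-294 (list medians 0.04 and -0.24). Thus 50% and 80% were called, against 28.7% and 41.9% of all tested genes. The lysosomal haem carrier gene Slc48a1 rose with let-7c (0.43 ± 0.07, adjusted p = 0.000790), and the folate and haem carrier gene Slc46a1 fell with let-7c (-0.50 ± 0.07, adjusted p = 0.000555) and rose with miR-294 (0.36 ± 0.07, adjusted p = 0.00229). Flvcr2, a carrier of the same family as the haem exporter Flvcr1, fell with miR-294 (-0.44 ± 0.08, adjusted p = 0.00168). Its miR-294 arrays read only 7.13 to 7.32, and the stricter filter left it out. Between the mimics 8 were higher with let-7c, 1 was lower and the list median was 0.36 (90% called, against 50.8% of all tested genes). The largest change was that of the lower gene, Slc46a1 (-0.87 ± 0.07, adjusted p = 2.48e-06), followed by Slc48a1 (0.76 ± 0.07, adjusted p = 2.96e-06) and Flvcr1 (0.68 ± 0.10, adjusted p = 0.000212).

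Ferritin genes and Hmox1 are known targets of Nfe2l2, the antioxidant factor Nrf2, and of its haem-sensing opponent Bach1. Of 13 such regulators and Nrf2 targets, 6 were higher and 1 lower in let-7c cells, and 2 were higher and 5 lower in miR-294 cells (list medians 0.13 and -0.002). The share called was 53.8% with each mimic, against 28.7% and 41.9% of all tested genes. Bach1 fell with let-7c (-0.43 ± 0.05, adjusted p = 7.36e-05), from 9.73 to 9.78 in mock to 9.27 to 9.38. With miR-294 it fell by less (-0.13 ± 0.05, adjusted p = 0.0395). The latter call ended without any 1 of miR-294 replicates 1 (0.0514), 2 (0.123) and 3 (0.0733) or of mock replicates 1 (0.0748), 2 (0.127) and 3 (0.0664). With all arrays kept it also ended after quantile normalization (0.0856), after 75th percentile centring (0.0776) and without the filter (0.0789). The range over the alternatives was 0.0229 to 0.127. Nfe2l2 differed by 0.03 ± 0.05 from mock with let-7c (adjusted p = 0.746) and fell with miR-294 (-0.28 ± 0.05, adjusted p = 0.00115), as did its inhibitor Keap1 (-0.42 ± 0.05, adjusted p = 6.66e-05) and the target Srxn1 (-0.44 ± 0.08, adjusted p = 0.00100). The cystine transporter gene Slc7a11 (1.101 ± 0.12, adjusted p = 7.21e-05) and Maff (1.05 ± 0.10, adjusted p = 3.87e-05) rose with let-7c. In mock both lay below the array medians of 7.36 to 7.41, at 6.65 to 7.23 and 6.71 to 6.94, and the stricter filter left both out. The targets Nqo1, Gclc and Txnrd1 did not pass with let-7c (0.02, 0.07 and 0.13, adjusted p = 0.774, 0.374 and 0.127). Gclm, Srxn1 and Gpx4 rose with let-7c (0.21, 0.38 and 0.13, adjusted p = 0.0219, 0.00421 and 0.0375). With miR-294 Nqo1 fell (-0.16, adjusted p = 0.0165). The calls of Gclm, Gpx4 and Nqo1 were not followed over the alternatives. Maff also rose with miR-294 (0.29 ± 0.10, adjusted p = 0.0419), although the groups overlapped, with 6.89 in miR-294 replicate 3 and 6.94 in mock replicate 2. The call ended without miR-294 replicate 1 (0.149) or 2 (0.111) or mock replicate 1 (0.0829) or 3 (0.140). It also ended after quantile normalization (0.0797), without the filter (0.0699) and in a fit of only the 2 groups compared (0.0517). The range over the alternatives was 0.00269 to 0.149.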

How the data were processed

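RNA of 9 arrays was compared, 3 per group, grouped by sample title. The deposited values are log2 intensities, for 35557 probe sets; the authors made them with GCRMA, per the submitters' processing notes, which give no version here. No header states the scale, which was read from the range of the values. They were used as deposited. Probe sets were named from GEO's platform annotation, with gene IDs matched to RefSeq: 21789 had 1 symbol, 1621 several and 12147 none. Per gene, the probe set with the highest mean was used, and a gene was tested if 3 arrays lay above their own 40th percentile (13182 genes). Being bright in 1 group alone was enough.

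One limma 3.58.1 fit in R 4.3.3 (lmFit, eBayes, 3 group means, 6 residual degrees of freedom) gave differences, standard errors and two-sided p-values, Benjamini-Hochberg adjusted over all tested genes. The number of arrays limits the precision. The fit was first tested on simulated data with independent errors, which lack the shared deviations of same-numbered arrays given below. The members, lists, tests and the rule for named genes were chosen with earlier results of these data known. That rule names the 7 genes, 8 fixed iron genes, up to 3 called genes of largest change per list and comparison, and the 3 genes of most like pattern. Same-numbered arrays deviated together from their group means (correlations 0.133 to 0.418 for let-7c with mock, 0.272 to 0.363 for miR-294 with mock), so a replicate block counts as pairing in those comparisons; between the mimics the correlations were 0.0285 to 0.248. Alternatives covered the block, normalization, centring, error model, filters, probe sets, 2-group fits and leaving out each array.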

Additional observations from a re-analysis of the deposited data

How the results depend on the processing

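Of 234 recomputed differences of the 7 genes, 228 moved by less than the spread between replicates, 6 moved by more and 0 reversed a called direction. Most could not move further: the block, the error model and the mean of 1-symbol probe sets leave these differences unchanged. Leaving out 1 of 3 arrays cannot shift a mean beyond that spread. Only normalization, centring and the 5 Ftl1 probe sets could, so the share that stayed says little about robustness. After quantile normalization Ireb2 and Aco1 differed by -0.0041 and 0.0766 between let-7c and mock, and Tfrc, Ireb2 and Aco1 by 0.467, 0.0929 and 0.0606 between the mimics; after centring on the 75th percentile Aco1 differed by 0.0477 between miR-294 and mock. The cause was not tested. The replicate block changed no call of the 7 genes and, of the other named genes, those of Steap2 with let-7c and of Alas1, Herc2 (-0.12, adjusted p = 0.0497) and Fthl17a with miR-294, and of Fthl17a between the mimics. Iron pathway genes called with let-7c numbered 38 with the block and 19 to 26 when 1 array was left out, with 12 to 19 higher and 6 to 9 lower; without a filter, 6 were lower. The other counts of iron genes, of members and of all genes stayed within 1.5 times. Ftl1 with all 5 probe sets was added after seeing the data. With the mean of probe sets Nfu1 differed by 0.08 between the mimics (adjusted p = 0.290, from 0.21 and 0.0115). With 3 arrays a group, small differences such as those of Ireb2 and Aco1 are not resolved.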

Other observations

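Genes of the Fthl17 family, X-linked relatives of the ferritin H subunit gene, were looked at after their values were seen. Their adjusted p-values are therefore no independent support. Of all tested genes, 53.8% had no overlap between miR-294 and mock. Fthl17f rose with miR-294 (0.25 ± 0.07, limma adjusted p = 0.0172, higher than every mock array in 3 of 3 arrays), which no longer passed when miR-294 replicate 1 (0.0640) or mock replicate 3 (0.0657; range over the alternatives 0.00465 to 0.0657) was left out. With let-7c it differed by 0.00 ± 0.07 (adjusted p = 0.970). Fthl17a differed by 0.15 ± 0.07 with miR-294 (adjusted p = 0.100; 0.0182 with a replicate block, range 0.0182 to 0.266). The 4 probe sets that 5 genes of the family share were higher than mock by 0.39 to 0.43 with miR-294 and by 0.04 to 0.08 with let-7c, and cannot be assigned to 1 gene.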
